A study of Homo sapiens with 4 samples.

Results

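The tumour necrosis factor (TNF) superfamily was followed through 10 of its genes, 4 ligands (LTB, TNFSF4, TNFSF10 and TNFSF15) and 6 receptors (TNFRSF9, TNFRSF10A, TNFRSF10D, TNFRSF11B, TNFRSF12A and TNFRSF21), among 19775 genes on the array. They were taken as every probe set annotated with exactly 1 symbol from this set, which gave 21 of the 54675 probe sets. The set was chosen by the measured log2 differences between these same arrays, in both knockdowns and between the controls, so its values are described here and none of them is tested. All 10 genes reached the level of 4.77 set for a gene to count as measured, the 40th percentile of all values, on at least 1 array.

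RNA came from MDA-MB-231, an established human breast carcinoma line of basal, mesenchymal-like character grown on plastic, in which the transcriptional repressor ZEB2 was lowered by either of 2 routes. For the stable knockdown, cells carried a ZEB2 short hairpin RNA (shRNA) and their control carried the pLVTH vector; whether these lines were clones or pools is not given in the sources used here. For the transient knockdown, cells received 20 nM of a ZEB2 small interfering RNA (siRNA) pool, and their control an siRNA against luciferase; they were washed after 24 hours and collected 48 hours later. Each of the 4 groups was 1 culture on 1 Affymetrix U133 Plus 2 array, so nothing below is backed by a repeat, and so few arrays limit the precision of every value.

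Values are log2, so that 1 unit is 2-fold, and differences are knockdown minus control or, between the controls, siRNA control minus shRNA control. The brightest probe set stands for a gene unless another is named. ZEB2 read 6.12 and 3.52 on the shRNA control and knockdown arrays and 6.56 and 3.51 on the siRNA control and knockdown arrays. Among markers of the line, VIM, the mesenchymal intermediate filament, read 13.64 to 14.12, whereas SPARC, a matrix protein gene, read 4.45 to 4.88. Of 4 luminal breast markers, the progesterone receptor gene PGR and FOXA1 were under 4.77 on every array, GATA3 read 8.18, 8.60, 9.27 and 9.48, and the oestrogen receptor gene ESR1 read 6.08, 6.25, 6.17 and 6.54. The ESR1 values rest on a probe set ending in _x_at, a kind that can read more than 1 gene.

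Ligands of this superfamily are mostly trimeric proteins of the cell surface that can be shed, and their receptors signal as clusters. Receptors with a death domain can start caspase activation, the others recruit TRAF adaptors and turn on NF-kB, and decoy receptors bind ligand without a full signal. In breast carcinoma cells the family is best known for the death ligand TRAIL, encoded by TNFSF10, and for the osteoclast regulators RANK and osteoprotegerin.

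The stable knockdown had higher readings of TNFSF10 and TNFRSF9, the transient knockdown a higher reading of LTB, and no gene of the set was 2-fold lower in either. In the stable pair 2 of the 10 genes differed by at least 2-fold, both higher, against 4.47% of the 15082 genes measured in either direction, 2.39% higher and 2.08% lower. In the transient pair 1 of the 10 did, against 0.172% in either direction, 0.0464% higher and 0.126% lower. Between the controls 5 of the 10 were at least 2-fold higher with siRNA, and 0 lower, against 10.8% and 4.99% of genes and 15.8% in either direction. At 1.5-fold in either direction the members counted 7 in the stable pair (14.7% of genes), 2 in the transient pair (2.2%) and 6 between the controls (34%). Because these same differences chose the set, the gap between its shares and those of all genes carries no weight. The medians over the set were 0.49, 0.06 and 0.91 in the 3 comparisons, and those over all genes measured were -0.02, -0.02 and 0.06. The comparison of the controls shares an array with each knockdown comparison, so the 3 differences of a gene are not independent of each other.

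**Figure D1:**
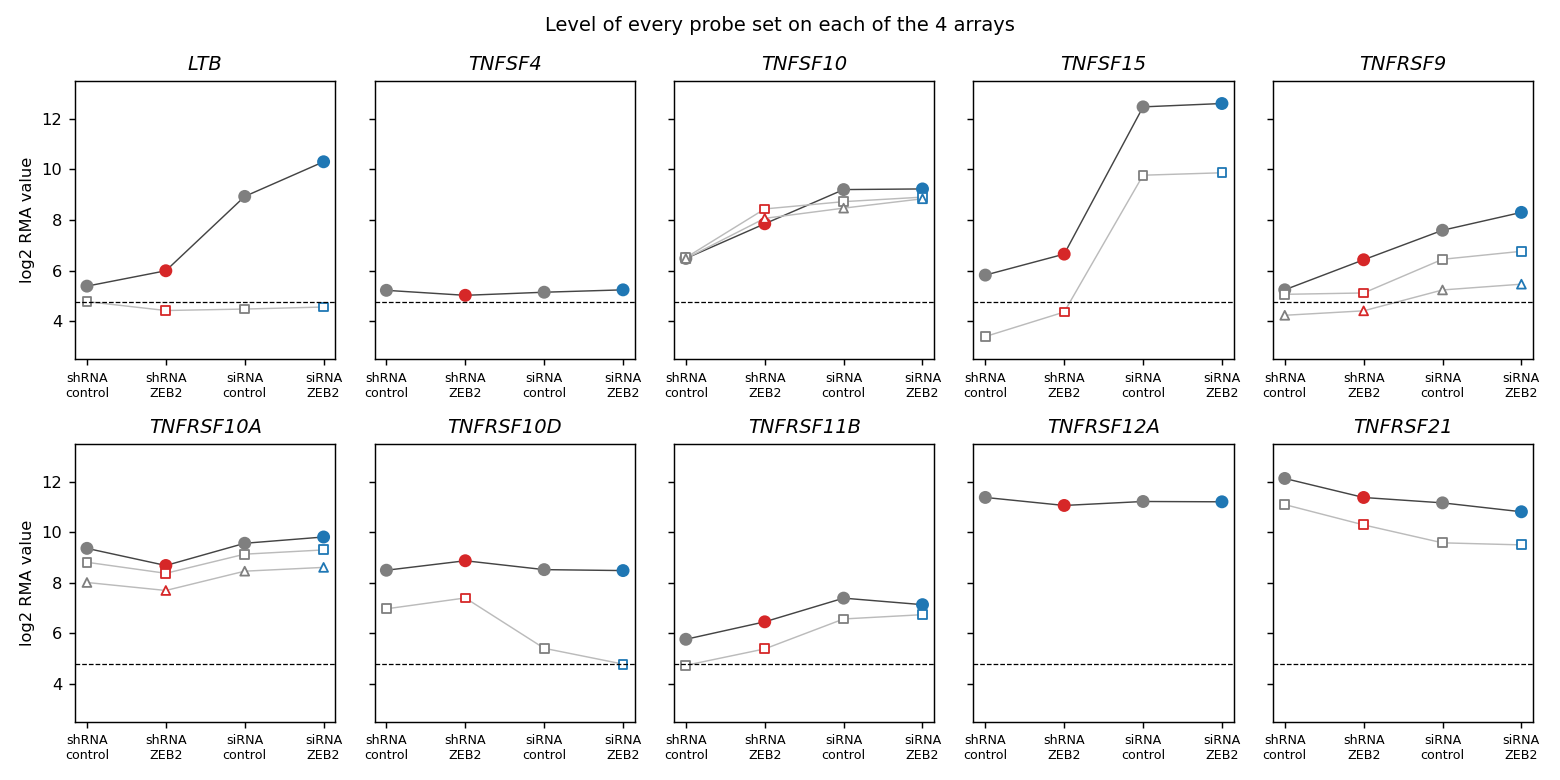
Log2 value (vertical axis) of every probe set of the 10 genes on the shRNA control, shRNA ZEB2, siRNA control and siRNA ZEB2 arrays, with filled circles for the brightest probe set, open symbols for the others, and lines joining values of 1 probe set. The dashed line is the level of 4.77; TNFSF15 reads 5.82 and 6.65 on the shRNA arrays and 12.48 and 12.61 on the siRNA arrays.

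The RefSeq sequences before the start sites of LTB and TNFRSF9, the genes of the set furthest up in the transient pair, are printed here beside that of TNFSF15, which differed most between the controls. Each is the 250 bases before the RefSeq start on the minus strand of GRCh38.p14, written 5′ to 3′ on the gene's own strand. The LTB window is chr6:31582426-31582675, the TNFRSF9 window is chr1:7940840-7941089 and the TNFSF15 window is chr9:114792531-114792780. Capitals mark matches, on either strand, to the E-box CAGGTG (the kind of site ZEB factors bind), to the AP-1 motif TGANTCA, or to the NF-kB consensus; no matches overlapped.
LTB: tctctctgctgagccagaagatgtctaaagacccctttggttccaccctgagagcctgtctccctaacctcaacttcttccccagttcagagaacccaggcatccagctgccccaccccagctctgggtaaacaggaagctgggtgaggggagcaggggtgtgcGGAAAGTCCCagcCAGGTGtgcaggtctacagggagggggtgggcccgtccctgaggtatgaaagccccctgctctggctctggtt
TNFRSF9: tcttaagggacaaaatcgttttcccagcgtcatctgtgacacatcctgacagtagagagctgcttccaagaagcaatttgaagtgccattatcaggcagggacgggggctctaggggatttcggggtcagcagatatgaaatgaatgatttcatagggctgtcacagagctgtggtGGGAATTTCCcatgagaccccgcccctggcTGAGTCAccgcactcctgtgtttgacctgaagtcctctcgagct
TNFSF15: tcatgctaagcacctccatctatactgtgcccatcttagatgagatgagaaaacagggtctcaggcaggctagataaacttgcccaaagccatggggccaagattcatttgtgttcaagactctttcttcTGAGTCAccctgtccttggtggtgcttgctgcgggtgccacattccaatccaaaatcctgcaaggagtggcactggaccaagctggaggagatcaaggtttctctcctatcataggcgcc
The LTB window held 1 NF-kB match, starting 86 bases before the start site, and 1 E-box, starting 73 bases before it. The TNFRSF9 window held 1 NF-kB match, 74 bases before the start site, and 1 AP-1 match, 44 bases before it. The TNFSF15 window held 1 AP-1 match, 120 bases before the start site. Windows of the same length hold the NF-kB consensus in 1.85% of 27305 RefSeq promoters, the AP-1 motif in 6.60% and the E-box in 17.5%. Of the 6 genes of the set with a promoter used here, TNFSF10, TNFSF4 and TNFRSF21 had 0 matches to any of the 3 motifs. The promoters of TNFRSF10A, TNFRSF10D, TNFRSF11B and TNFRSF12A were not searched. CAGGTG was the only form of E-box searched for, so 0 matches says nothing of other forms. A match is a run of letters and shows no binding.

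LTB encodes lymphotoxin beta, the membrane anchor of the lymphotoxin heterotrimer that signals through LTBR. Its probe set 207339_s_at read 5.38 (shRNA control), 5.99 (shRNA knockdown), 8.93 (siRNA control) and 10.31 (siRNA knockdown). The siRNA knockdown was thus the highest array, and both siRNA arrays lay above both shRNA arrays. The difference was 1.37 in the transient pair (2.59-fold), where LTB ranked 2 from the top of 15082 genes, and 0.61 in the stable pair (1.53-fold). The siRNA control was 3.55 above the shRNA control, an 11.7-fold gap that exceeds either knockdown difference. Its other probe set, 1559754_at, stayed between 4.42 and 4.77 on the 4 arrays and differed by -0.35 in the stable pair and 0.08 in the transient pair. The LTB result therefore rests on 1 probe set, and the mean of the 2 gives 0.73 in the transient pair.

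TNFSF15 encodes a cytokine known from endothelial cells, whose signalling receptor is TNFRSF25. Probe set 229242_at read 5.82 (shRNA control), 6.65 (shRNA knockdown), 12.48 (siRNA control) and 12.61 (siRNA knockdown). The arrays split by method, with a gap of 5.83 between the shRNA knockdown and the nearer siRNA array. The controls differed by 6.66, or 101-fold, the fifth highest value of 15082 genes. Probe set 221085_at gave 6.38 for the same gap, with both shRNA arrays, at 3.39 and 4.36, short of the level of 4.77. Within the pairs the differences were 0.83 (stable) and 0.13 (transient) by the first probe set and 0.97 and 0.10 by the second. Both probe sets stayed short of 2-fold in both knockdowns.

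TNFSF10 encodes TRAIL, which triggers apoptosis through TNFRSF10A and TNFRSF10B. Probe set 202688_at read 6.48 (shRNA control), 7.85 (shRNA knockdown), 9.20 (siRNA control) and 9.23 (siRNA knockdown). The shRNA control was the lowest array, the shRNA knockdown lay in between, and the siRNA arrays were nearly level. The stable difference was 1.37 (2.59-fold), and the other probe sets, 202687_s_at and 214329_x_at, gave 1.93 (3.80-fold) and 1.59 (3.01-fold). All 3 probe sets were thus at least 2-fold higher in the stable knockdown. In the transient pair they differed by 0.03, 0.18 and 0.37. Between the controls they differed by 2.72, 2.21 and 1.99, so the siRNA control already read 3.98-fold to 6.61-fold higher than the shRNA control.

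TNFSF4, a costimulatory ligand of antigen-presenting cells, had 1 probe set, which read 5.22, 5.02, 5.14 and 5.24 on the shRNA control, shRNA knockdown, siRNA control and siRNA knockdown arrays. These 4 values span 0.22 and lie close to the level of 4.77, where RMA compresses differences. The differences were -0.20 in the stable pair, 0.09 in the transient pair and -0.08 between the controls.

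TNFRSF9, a costimulatory receptor best known on activated T cells, had its brightest probe set, 207536_s_at, at 5.24 (shRNA control), 6.43 (shRNA knockdown), 7.59 (siRNA control) and 8.30 (siRNA knockdown). Each knockdown read above its own control, and both siRNA arrays lay above both shRNA arrays. The difference was 1.19 (2.28-fold) in the stable pair and 0.71 (1.63-fold) in the transient pair, where it ranked 41 from the top. Probe set 211786_at differed by 0.05 and 0.32, and 238950_at by 0.18 and 0.23. The sign was the same in all 3 probe sets, but the 2-fold stable difference was seen in 1 of them, and their mean was 0.47. Between the controls the probe sets differed by 2.36, 1.39 and 1.002.

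LTB and TNFRSF9 are typical of lymphocytes, so 13 leukocyte markers were read beside them. PTPRC, the pan-leukocyte phosphatase, read 3.44 to 3.87, and PTPRC, CD2, CD3G, MS4A1 and NKG7 were under 4.77 on every array. The other 8 reached that level on at least 1 array, among them the lymphocyte genes CD3D (4.84 to 5.02), CD3E (5.17 to 5.52), CD4 (5.71 to 6.02), CD8A (5.41 to 6.01) and CD79A (5.88 to 6.24). The level lies under the medians of the 4 arrays, 5.34 to 5.37, so reaching it does not show that a gene was expressed. LYZ, the lysozyme gene, was the 1 marker at 2-fold in the stable pair, at -1.19, and read 4.70, 3.51, 5.03 and 5.20 on the shRNA control, shRNA knockdown, siRNA control and siRNA knockdown arrays. The log2 of the summed linear level of the 13 markers was 8.80, 8.72, 9.09 and 9.04 on the same arrays in order. The highest marker by mean, the monocyte receptor gene CD14, read 5.21, 4.98, 7.30 and 6.94, and the part of these markers in the differences was not tested.

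**Figure D2:**
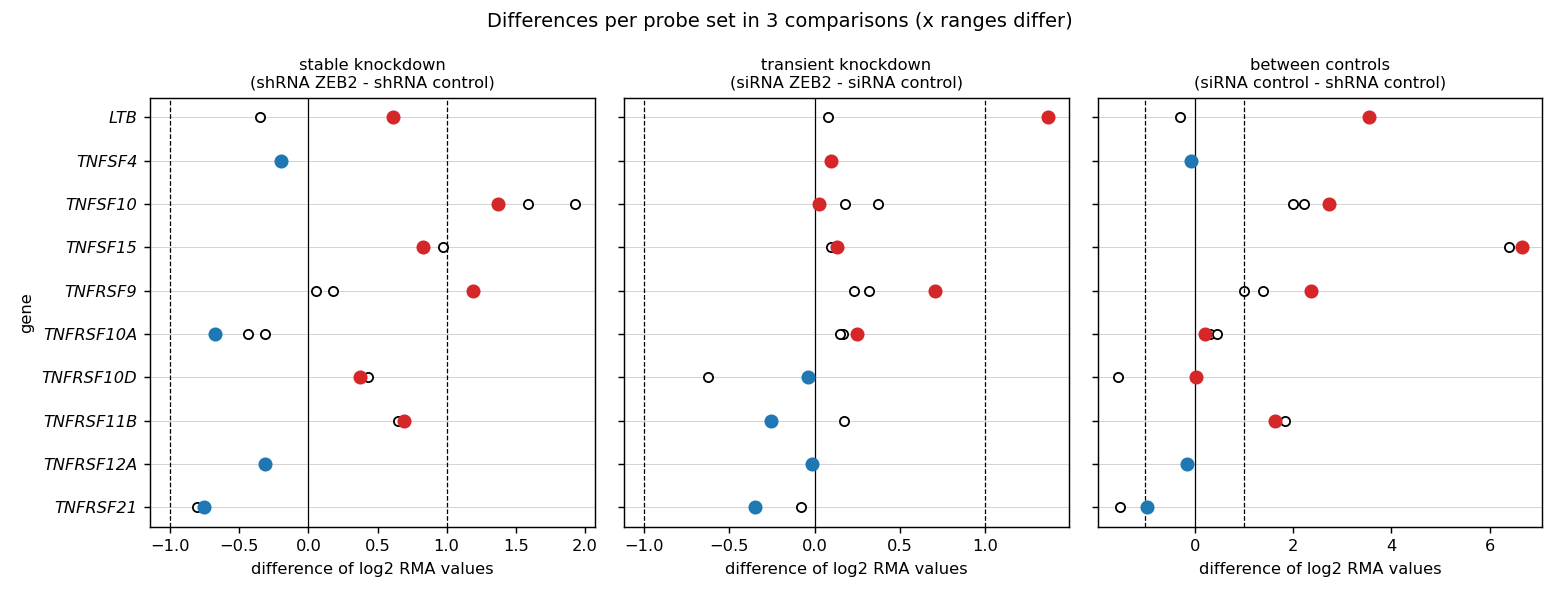
Difference of log2 values (horizontal axis, with a different range in each panel) for each of the 10 genes in the stable pair, the transient pair and between the controls; filled circles are the brightest probe set, red above 0 and blue below, open circles the others, and dashed lines mark 2-fold. All 3 TNFSF10 probe sets lie past 2-fold in the stable pair, whereas 1 of 2 LTB probe sets does in the transient pair.

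The TRAIL receptors of the set went both ways in the stable pair, and each stayed short of 2-fold there. TNFRSF10A, a death receptor, read 9.36 (shRNA control), 8.68 (shRNA knockdown), 9.56 (siRNA control) and 9.81 (siRNA knockdown). The shRNA knockdown was its lowest array, with a stable difference of -0.68, and the other probe sets gave -0.44 and -0.32. In the transient pair the 3 probe sets differed by 0.25, 0.17 and 0.15, opposite in sign to the stable pair. Between the controls they differed by 0.20, 0.32 and 0.45.

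TNFRSF10D, a decoy receptor with a truncated death domain, read 8.49, 8.87, 8.52 and 8.48 with its brightest probe set, 227345_at. The stable difference was 0.38, with 0.43 from the other probe set. The transient difference of -0.04 turned to 0.02 under quantile normalization and 0.004 under cyclic loess, and the difference between the controls of 0.02 turned to -0.02 under cyclic loess. The second probe set, 210654_at, had another pattern, reading 6.97, 7.40, 5.41 and 4.78. It differed by -0.63 in the transient pair and by -1.56 between the controls, so the probe sets of this gene disagree by 1.59 in the latter.

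TNFRSF11B encodes osteoprotegerin, a secreted decoy for TRAIL and for the RANK ligand. It read 5.76 (shRNA control), 6.45 (shRNA knockdown), 7.39 (siRNA control) and 7.13 (siRNA knockdown). Both siRNA arrays lay above both shRNA arrays, with the controls 1.63 apart (3.09-fold). The stable differences of its 2 probe sets were 0.69 and 0.65. In the transient pair the 2 probe sets differed in sign, at -0.26 and 0.17.

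TNFRSF12A, the receptor of TWEAK, had the least spread of the receptors by brightest probe set and read 11.37, 11.06, 11.21 and 11.20. The stable difference was -0.32 and the difference between the controls -0.16. The transient difference of -0.01 turned to 0.003 under quantile normalization and 0.01 under cyclic loess. Its ligand gene TNFSF12 had no probe set with 1 symbol in the annotation used here.

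TNFRSF21, a death-domain receptor known from neurons and lymphocytes, differed by less than 0 in all 3 comparisons by both of its probe sets. It read 12.13 (shRNA control), 11.37 (shRNA knockdown), 11.16 (siRNA control) and 10.81 (siRNA knockdown). The shRNA control was the highest array and both siRNA arrays lay below both shRNA arrays. The stable differences were -0.75 and -0.80 by its 2 probe sets, and the transient ones -0.35 and -0.08. Between the controls they were -0.97 and -1.51, so whether this gap passed 2-fold depended on the probe set.

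Over the whole set, both siRNA arrays lay above both shRNA arrays for 6 genes, against 39.2% of all genes measured, and below them for 1, against 27.5%. This split by method is not a contrast of knockdown with control, since each method has 1 control and 1 knockdown array. ZEB2 itself was 0.45 higher with control siRNA than with the control vector, and 0.42 higher by probe set 228333_at. Vector, transfection and any other difference between the cultures of the methods cannot be told apart in the split.

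**Figure D3:**
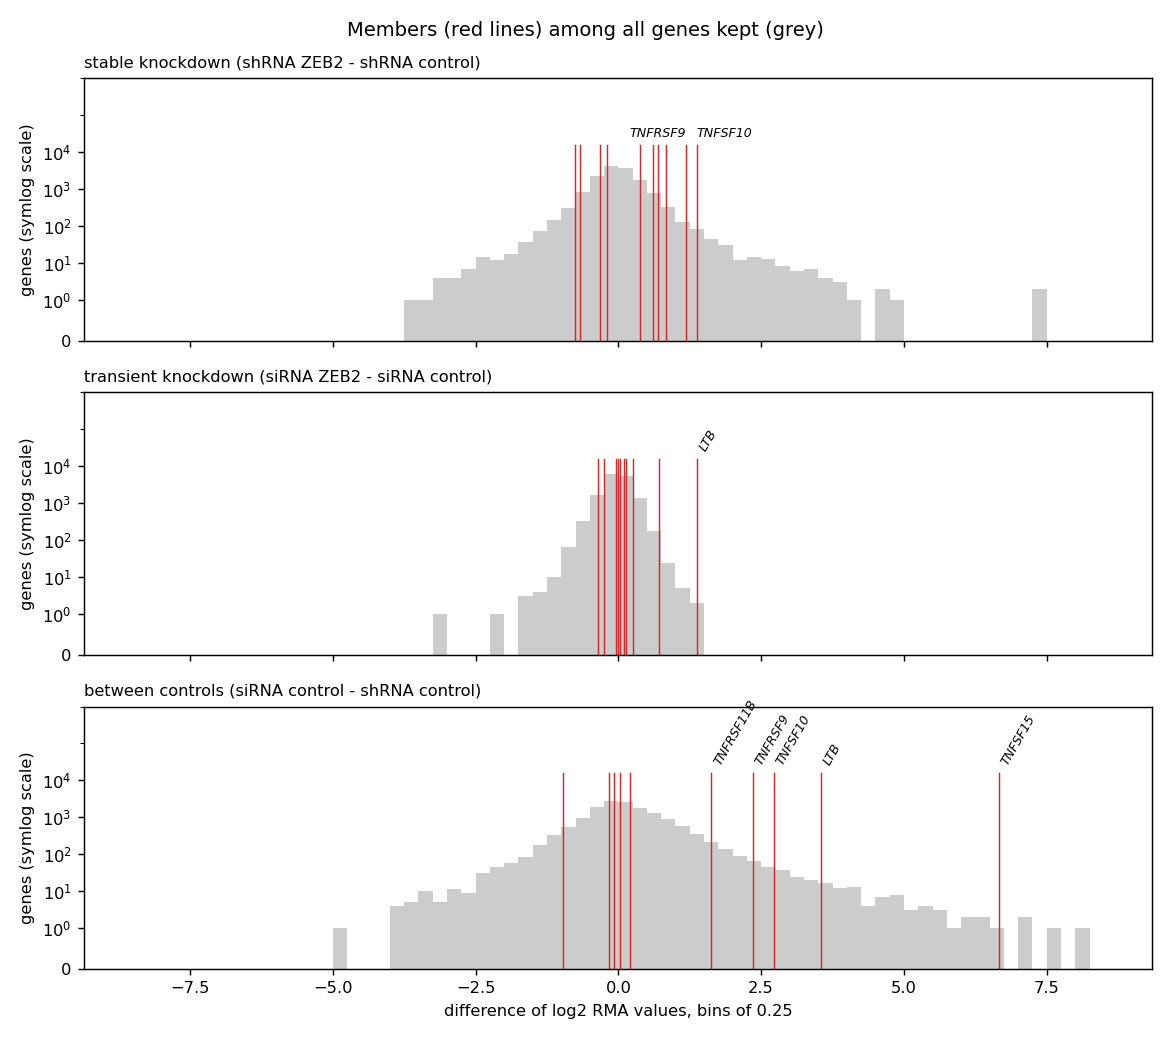
Number of genes (vertical axis, log scale above 1) by difference of log2 values (horizontal axis, bins of 0.25) for the 15082 genes measured, with red lines at the 10 genes of the set; those at 2-fold or more are named. LTB at 1.37 lies at the upper end of the transient pair, and TNFSF15 at 6.66 near the upper end of the comparison of the controls.

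Binding partners were read next to see whether ligands and receptors differed together; these partners were added to the named genes after values had been seen. LTBR, the receptor of lymphotoxin beta, differed by -0.49 in the stable pair and -0.13 in the transient pair, where LTB differed by 0.61 and 1.37. The other LTBR probe sets gave -0.37 and -0.33 (1559458_at), -0.07 and 0.15 (232819_s_at), and 0.12 and -0.12 (243400_x_at), so its sign varied by probe set. TNFRSF25, the receptor of TNFSF15, differed by 0.58 and 0.39, and by 0.51 between the controls, where TNFSF15 differed by 6.66. These TNFRSF25 values rest on a probe set ending in _x_at. The brightest probe set without that ending, 216042_at, gave -0.01, 0.09 and -0.43, whereas 211841_s_at gave 0.33, 0.18 and 0.23. Probe sets 210847_x_at and 219423_x_at gave 0.58 and 0.78 in the stable pair, 0.006 and -0.11 in the transient pair, and 0.92 and 1.05 between the controls. The direction of this receptor thus depends on the probe set, with 216042_at alone below 0 in the stable pair. TNFSF9, the ligand of TNFRSF9, read 6.09, 6.10, 10.26 and 10.34, with differences of 0.01 and 0.08 in the pairs. It was thus level within each method and 4.17 (18.1-fold) higher with control siRNA than with the control vector, where TNFRSF9 was 2.36 higher. TNFRSF4, the receptor of TNFSF4, differed by -0.43, -0.26 and -0.08 in the 3 comparisons, also by a probe set ending in _x_at. Its other probe set gave -0.04, 0.40 and -0.21, turning the sign in the transient pair.

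The remaining TRAIL receptors were TNFRSF10B and the decoy TNFRSF10C. TNFRSF10B read 10.72, 11.05, 11.12 and 11.07, and differed by 0.33 in the stable pair, -0.05 in the transient pair and 0.40 between the controls. Its probe sets 209294_x_at and 210405_x_at differed by -1.75 and -1.90 between the controls, and 1556645_s_at, under 4.77 on every array, by -0.09. The probe sets of this gene thus disagreed there, as did those of TNFRSF10D, at 0.02 and -1.56. TNFRSF10C differed by 0.12, 0.39 and -0.40, and by 0.10, 0.11 and -0.02 with its brightest probe set not ending in _x_at, 234195_at. TNFRSF10A, TNFRSF10B, TNFRSF10C and TNFRSF10D lie next to each other on chromosome 8 and are close relatives, and probe sets ending in _x_at can read more than 1 of them.

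TNFRSF11A encodes RANK, the signalling receptor for the ligand that osteoprotegerin captures. It read 9.13 (shRNA control), 7.05 (shRNA knockdown), 6.24 (siRNA control) and 6.08 (siRNA knockdown). The shRNA control stood above the other arrays, giving -2.07 in the stable pair (4.21-fold lower), -0.16 in the transient pair and -2.89 between the controls. Its second probe set gave -1.45, -0.11 and -2.09. RANK and osteoprotegerin thus had opposite signs in the stable pair and between the controls. Their ligand gene, TNFSF11, was under 4.77 on every array, at 3.29 to 3.60.

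**Figure D4:**
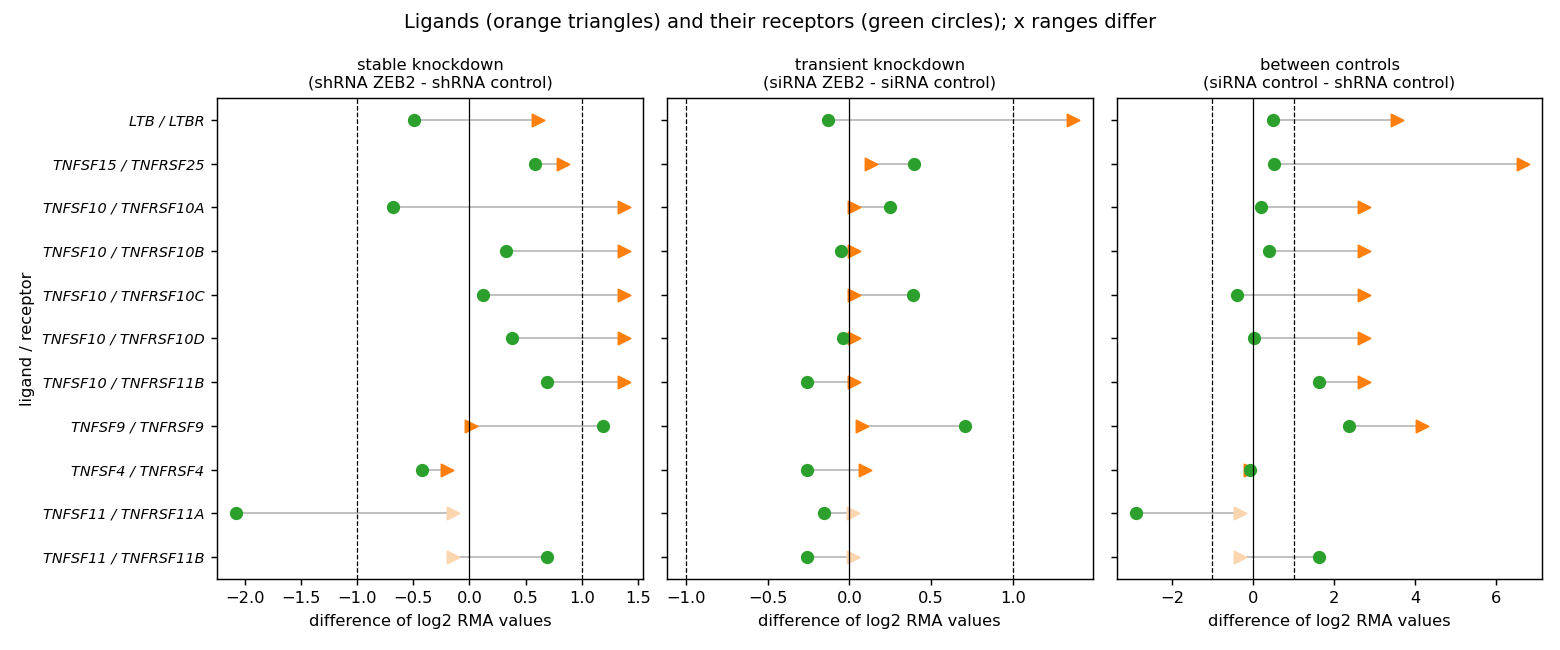
Differences of log2 values (horizontal axis, with a different range in each panel) of ligands (orange triangles) and their receptors (green circles), 1 pair per line, in the stable pair, the transient pair and between the controls, with dashed lines at 2-fold; the pale triangle is TNFSF11, under 4.77 on every array. TNFRSF11A lies at -2.07 in the stable pair, and LTB at 1.37 in the transient pair against -0.13 for LTBR.

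Among the other superfamily genes measured, TNFRSF11A alone differed by 2-fold within a pair. Of 12 other ligands with a probe set, 10 were measured and 0 differed 2-fold in either pair, with medians of -0.14 in the stable pair and 0.006 in the transient pair. TNF itself, the founding cytokine, read 4.73, 4.31, 5.14 and 5.44, and TNFSF8 differed by -0.35 and 0.18. Of 22 other receptors with a probe set, 21 were measured and 1, TNFRSF11A, was 2-fold lower in the stable pair and 0 in the transient pair, with medians of -0.14 and -0.03. Over all genes measured, 4.47% differed 2-fold in the stable pair, 0.172% in the transient pair and 15.8% between the controls. Between the controls TNFSF9 was the 1 other ligand at 2-fold, and among the other receptors NGFR, the neurotrophin receptor gene, was 1.64 higher and TNFRSF11A lower. NGFR also had the lowest difference of these receptors in the transient pair, at -0.85, reading 5.48 and 4.63 there.

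Genes that act downstream of these receptors were counted in 3 lists, which were chosen with earlier results of these data known. Over all genes measured, 4.47% differed 2-fold in the stable pair and 0.172% in the transient pair. Of 18 death receptor signalling genes measured, 0 differed 2-fold in the stable pair or the transient pair, with medians of -0.07 and -0.03. The largest in the stable pair were MLKL, the effector of necroptosis, at -0.89 there and -0.33 in the transient pair, and BID, which links caspases to mitochondria, at -0.63 and -0.20. The largest in the transient pair were the survival gene BCL2, at -0.55, and CFLAR, an inhibitor of caspase activation at receptors, at 0.37. Of 22 adaptor and ubiquitin genes, 0 differed 2-fold in either pair, with medians of -0.19 and -0.04. TNFAIP3, an NF-kB feedback inhibitor, differed by 0.72 and -0.11, and its binding partner TNIP1 by 0.72 and -0.05, or 0.24 and 0.15 with its other probe set. In the stable pair 6 of the 22 were higher and 16 lower, the latter including TRAF5 at -0.72 and TAB2 at -0.68. Over all 15082 genes measured, 7032 were higher and 8030 lower there. With the mean of all probe sets the counts for the 22 were 8 higher and 14 lower, and with cyclic loess 7 and 15.

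Of 24 NF-kB subunits, inhibitors and targets, 2 were at least 2-fold higher in the stable pair and 0 in the transient pair, with medians of 0.03 and -0.03. Over all genes measured, 2.39% and 0.0464% were 2-fold higher in these pairs. VCAM1, a vascular adhesion molecule, read 3.74, 6.91, 4.16 and 3.83, so the shRNA knockdown alone was over 4.77, with a stable difference of 3.18. IL6, an inflammatory cytokine gene, read 5.98, 7.50, 11.51 and 12.14, and differed by 1.52 in the stable pair and 0.63 in the transient pair. Between the controls, 16 of the 24 were at least 2-fold higher with siRNA (10.8% of all genes measured) and 1, NFKB2, was lower (4.99%). The median was 1.85 against 0.06 over all genes. For adaptor and ubiquitin genes these counts were 6 of 22 higher and 0 lower, and for death receptor signalling genes 0 of 18 higher and 2 lower. With the mean of all probe sets the adaptor and ubiquitin counts were 3 higher and 1 lower. In that comparison IL6 was 5.52 higher and TNFAIP3 2.32 higher with siRNA.

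Genes with the most similar profile were found by the Euclidean distance between values on the 4 arrays, each profile centred on its mean. The 3 nearest to LTB were CDH1, which encodes E-cadherin, at a distance of 0.29, then FBXO2 and CLDN1, a tight junction gene, both at 0.50. CDH1 read 3.54, 4.26, 7.37 and 8.35. Nearest to TNFRSF9 were VEGFA, an angiogenic factor gene, S100A2 and SNN, at 0.31, 0.31 and 0.32. TNFSF10 was nearest to EVA1A, CARMIL1 and ACKR3, at 0.11, 0.11 and 0.12. TNFSF15 was nearest to MAL2 at 0.61, the complement gene C3 at 0.77 and PRSS35 at 0.88. Profiles were not scaled and TNFSF15 spanned 6.79 over the arrays against 3.06 for TNFRSF9, so distances are not comparable between genes of unlike span. TNFRSF10A lay nearest to PRR19, SKIL and GPR180 (0.05 to 0.10), TNFRSF11B to SMIM19, RBKS and CLIC6 (0.06 to 0.09), and TNFRSF21 to ADGRA3, ASAH2B and CPA4 (0.07 to 0.09). With 4 arrays such likeness is a description, and many genes share a split by method.

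Chromosomal neighbours of LTB, TNFSF15, TNFSF10 and TNFRSF21 were read from the RefSeq gene order, and those of the other genes of the set are not described here. LTB lies beside TNF and LST1, with LTA and NCR3 next. In the transient pair these differed by 0.30, 0.14, -0.07 and -0.40, and LTB by 1.37. TNFSF15 lies beside TNFSF8 and TEX48, which differed by -0.43 and -0.49 between the controls, whereas TNC, a matrix protein gene beyond TNFSF8, was 3.55 higher and TNFSF15 6.66 higher. TNFSF10 lies between NCEH1 and GHSR, which differed by -1.06 and -0.15 in the stable pair, opposite in sign to TNFSF10 at 1.37. TNFRSF21 lies between ADGRF1, which differed by 0.30, -0.11 and -3.90 in the 3 comparisons, and CD2AP, which differed by -0.17, 0.08 and 0.49. ADGRF5, beyond ADGRF1, differed by -0.84, -0.34 and -1.47, where TNFRSF21 differed by -0.75, -0.35 and -0.97, and ADGRF4, beyond CD2AP, was under 4.77 on every array. Neighbours thus differed both with and against these genes.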

How the data were processed

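The authors deposited log2 expression values per probe set, which the submitters' processing notes trace to RMA and affy (versions not given in the sources used here). This method corrects background and forces the arrays to 1 distribution, so a change in total RNA would not show; sorted values lay within 0.0805 of their mean over the 4 arrays. No scanner files were used here. Of the 54675 probe sets, 41097 carried 1 symbol in GEO's platform annotation, 1801 several and 11777 none named here. A gene was its brightest probe set by mean, kept when its highest value reached 4.77; 15082 of 19775 genes were kept. The RefSeq gene table (GRCh38.p14), consulted only for names and gene order, gave all 10 members the same symbol.

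Differences of log2 values were counted at 2-fold with no test. The 5 pathway lists hold 107 genes, 9 of them with no probe set named here. Named from each list were genes at 2-fold in a knockdown pair, otherwise the 2 with the largest difference, and for each member spanning at least 1 unit the 3 nearest profiles. Binding partners, chromosomal neighbours, NGFR, NFKB2, BCL2, CFLAR, TRAF5, TAB2 and the other markers were named after their values were seen. The set, lists and rule were chosen with earlier results of these data known. Values were recomputed with probe sets averaged per gene, no probe sets ending in _x_at, no filter or the 60th percentile, median centring, quantile normalization, cyclic loess (limma 3.58.1, R 4.3.3), and thresholds of 1.5-fold and 3-fold. The counting code was run on simulated data with very small noise and planted changes larger than 2-fold. That run checks the code alone and does not show how reliable the counts in these data are. Python 3.11.15, pandas 2.3.3 and matplotlib 3.10.9 were used.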

Additional observations from a re-analysis of the deposited data

Results flagged for a closer look

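For 4 genes the stable and the transient difference had opposite signs; with 1 array per group the gap between the pairs was not tested. TNFRSF11B had a gap of 0.95 between its stable difference of 0.69 and its transient difference of -0.26, and its second probe set had the same sign in both. TNFRSF10A had a gap of -0.93, from -0.68 and 0.25, with the same pattern of signs in all 3 probe sets. TNFRSF10D had a gap of 0.41, from 0.38 and -0.04, and its transient sign turned under quantile normalization (0.02) and cyclic loess (0.004). Under these scalings TNFRSF10D thus left the group and TNFRSF12A entered it, with stable differences of -0.32 and -0.33 and transient ones of 0.003 and 0.01. TNFSF4 had a gap of -0.29, from -0.20 and 0.09, with all values near the level of 4.77.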

How the results depend on the processing

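The choice of probe set moved values most. With the mean of all probe sets, 1 in place of 2 members reached 2-fold in the stable pair, since TNFRSF9 came to 0.47, and 0 in place of 1 in the transient pair, since LTB came to 0.73. That mean also gave 1.63 in place of 3.55 for LTB between the controls, and a median of 1.07 in place of 1.85 for the NF-kB list. TNFRSF21 passed 2-fold between the controls with the mean (-1.24) and with cyclic loess (-1.01). At 1.5-fold, 7 members counted in the stable pair and 2 in the transient pair, and at 3-fold 0 in each. The lists hold 107 genes, 9 of them with no probe set named here. Those measured were 10 other ligands, 21 other receptors, 22 adaptor and ubiquitin, 18 death receptor signalling and 24 NF-kB genes. Of the list genes measured, 18 reached 1.5-fold in the stable pair, against 3 at 2-fold. In the transient pair 3 did, against 0. Over all genes measured, 14.7% and 2.2% reached 1.5-fold in these pairs. Of 207 member differences recomputed, 0 that reached 2-fold changed sign, 2 fell short of 2-fold and 2 came to pass it; 6 small ones changed sign, all of TNFRSF10D or TNFRSF12A, the former to -0.77 between the controls with the mean. The 3 scalings moved no member by more than 0.0675. No paired analysis was possible because each group has 1 array and the result comes from no test. At the 60th percentile filter TNFSF4 was left out.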
